A study of Mus musculus and Homo sapiens with 18 samples.

Results

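The laminins and integrins are the chains of the sheet that cells stand on and the receptors that hold them to it. They were taken as every gene whose symbol begins with Lama, Lamb or Lamc and a digit, or with Itga or Itgb and a digit or the letter d, e, l, m, v or x, with antisense rows and genes of integrin-binding proteins left out. By this rule 38 members were found among 46882 genes of the lens, 38 among 54838 of NLPCs and 38 among 60880 of HLE-B3 cells, and 23, 34 and 30 of them had enough counts to be tested. Itgb3bp fits the letters of the rule, but its product is a centromere protein, and it was left out like Itgb1bp. Its log2 fold changes were −0.64 in the lens, −0.23 in NLPCs and −0.08 in HLE-B3 cells, none of which passed the test.

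RNA was sequenced from 18 libraries in 3 systems, 3 libraries per group, to ask what loss of the RNA-binding protein Qki changes in lens cells. The lenses came from Nestin-CreERT2; QkL/L mice (Qk-iCKO) and from Nestin-CreERT2; QkL/+ mice (Ctrl), so the controls also carried the Cre and 1 floxed allele, and they were dissected in the third postnatal week, after deletion had been induced with tamoxifen. The Nestin promoter that drives the Cre is active in neural stem cells and lens epithelium. NLPCs are lens progenitor-like cells made from mouse neural stem cells with Noggin, then bFGF, BMP4 and BMP7, and were labelled WT or Qk-/-. Per the paper, the stem cells came from brains of Nestin-CreERT2; QkL/L mice, and Qk was deleted in culture with hydroxytamoxifen. Whether the WT cells also received the drug is not stated there. HLE-B3 is a virally immortalized human lens epithelial line, grown in serum, and its QKI KO cells were made with CRISPR/Cas9 and enriched by puromycin selection after lentiviral infection. The labels do not say that the NLPC and HLE-B3 libraries came from separate cultures, so p-values there measure only the spread between libraries, which may be technical.

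Laminins are trimers of an alpha, a beta and a gamma chain that polymerize into the basement membrane, which in the eye forms the lens capsule around the whole lens. Integrins are heterodimers of an alpha and a beta subunit that span the plasma membrane and link laminin, collagen, fibronectin or a counter-receptor on another cell to the actin or keratin cytoskeleton. The alpha subunit sets much of the ligand choice, the beta 1 subunit pairs with most alpha subunits of adherent cells, and the beta 2 subunit pairs with alpha L, M, X and D on leukocytes.

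Total counts per library were 10319320 to 16425331 in the lens, 28154202 to 68243360 in NLPCs and 69190864 to 81384471 in HLE-B3 cells. Crystallin genes, which define the lens, took 56.3 to 66.9% of counts in the lens, but at most 0.00661% in NLPCs and 0.0989% in HLE-B3 cells, while NLPCs kept 5044 to 8403 CPM (counts scaled to a common library total) of 8 neural stem cell and astrocyte markers. QKI fell in QKI KO HLE-B3 cells by 1.34 on the log2 scale (edgeR, adjusted p = 1.85e-11). Qk did not pass the test in the Qk-iCKO lens (log2 fold change −0.31, edgeR, adjusted p = 0.200) and was higher in the NLPC libraries labelled Qk-/- (log2 fold change 0.41, edgeR, adjusted p = 0.0270), against their label. A count over the whole gene cannot tell a transcript without the deleted part from an intact one. Qk-iCKO library 1 stood apart by its normalization factor (1.48, against 0.888 to 0.962 for the other 5), and NLPC library Qk-/- 2 correlated with its own group at 0.908, the lowest of the 6.

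In control samples the systems differed in which members led, compared here as CPM per kilobase of exons. In the Ctrl lens Itgb5 was highest at 58.1 ± 3.34 (SD, n = 3), ahead of Itgb1 (40.4 ± 2.90) and Itga6, the alpha partner in laminin receptors (16.7 ± 2.85). In WT NLPCs Itgb1 led at 175.5 ± 2.74, followed by Lamc1 (36.8 ± 7.73) and Itga6 (35.5 ± 1.94), and the last pair did not differ beyond its spread. In WT HLE-B3 cells ITGB1 (164.0 ± 6.14) and LAMC1 (107.3 ± 1.22) led, then ITGA5, the alpha subunit of the fibronectin receptor (42.3 ± 2.21). The leading laminin chains of the Ctrl lens were Lamb1 (8.77 ± 0.404), Lama5 (5.99 ± 0.659), Lamc1 (5.98 ± 0.804) and Lama1 (5.76 ± 0.785), and the last 3 lay within each other's spread. No alpha chain of HLE-B3 cells came near LAMC1: the highest, LAMA1, was at 1.58 ± 0.120, and the beta chain LAMB2 was at 14.6 ± 0.479.

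In the Qk-iCKO lens, a set of integrin subunits that were near 0 in control lenses rose, and the laminin chains changed in both directions. Of the 23 members tested, 9 passed an adjusted p of 0.05, 7 higher and 2 lower, which is 39.1% against 12.3% of all 12201 genes tested (8.38% higher and 3.88% lower). Of these Itga7, Itgam and Itgb2 reached the count filter only in the Qk-iCKO libraries, so that they had to differ. The median log2 fold change was 0.56 over the members tested and 0.01 over all genes. Values overlapped between the groups for 8 members, and for 15 they did not, against 35.3% of all genes. Of the 15, 10 were above and 5 below every control library, against 18.2% and 17.1% of all genes. The plot of lens values by library shows 22 of the 23 members.

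**Figure D1:**
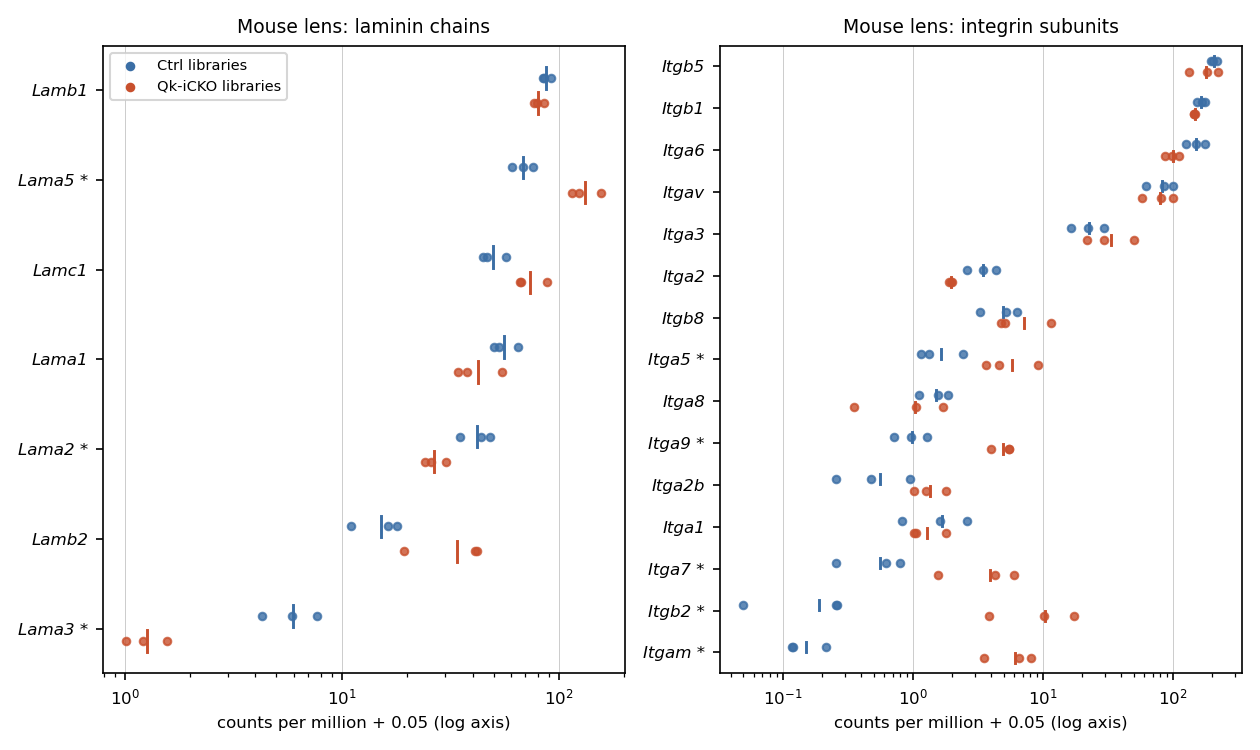
CPM (log axis, with 0.05 added so that zeros can be drawn) of 7 laminin chains and 15 integrin subunits tested in the lens, ordered by their control level per kilobase. Each point is 1 of 3 Ctrl or 3 Qk-iCKO libraries, bars are means, and a star marks an adjusted p under 0.05. The red points of Itgam and Itgb2 lie between 3.48 and 17.2 CPM while all blue points lie under 0.214.

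Among the laminins of the lens, Lama5 was higher and the low Lama3 and Lama2 were lower. Lama5, the alpha chain of laminins in most adult basement membranes (chr2:180176373-180225859, GRCm38, minus strand), had 75.8, 67.9 and 60.8 CPM in the Ctrl lenses and 157, 115 and 124 CPM in the Qk-iCKO lenses. All 3 deletion libraries were above all controls, and the log2 fold change was 0.95 ± 0.17 (SE, edgeR, adjusted p = 0.0135). Lama3, an alpha chain of epithelial laminins, went the other way, from 7.62, 5.85 and 4.26 CPM to 1.17, 0.968 and 1.51 CPM (log2 fold change −2.27 ± 0.31, edgeR, adjusted p = 0.00509). Lamb3, a beta chain of epithelial laminins, had too few counts for the test, with 8 counts in the 3 Ctrl libraries together and 19 in the Qk-iCKO libraries. Lama2, the alpha chain best known from muscle and nerve, had 48.0, 34.9 and 43.5 CPM in Ctrl and 25.7, 24.0045 and 30.2 CPM in Qk-iCKO lenses, lower in all 3 (log2 fold change −0.66 ± 0.17, edgeR, adjusted p = 0.0444).

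The chains that are shared by most laminin trimers did not pass the test in the lens. Lamc1 had 57.1, 46.6 and 44.8 CPM in Ctrl and 88.3, 66.9 and 65.8 CPM in Qk-iCKO lenses, without overlap (log2 fold change 0.58 ± 0.18, edgeR, adjusted p = 0.0783). Lamb2 had 17.98, 16.3 and 10.9 against 40.9, 42.0 and 19.3 CPM, also without overlap (log2 fold change 1.18 ± 0.33, edgeR, adjusted p = 0.0563). With the replicate number as a block, both passed, Lamb2 with an adjusted p of 0.00508 and Lamc1 with 0.0354 (edgeR). Lamb1 (log2 fold change −0.11) and Lama1 (−0.41) had overlapping groups, and with total counts alone as scaling Lamb1 took the opposite sign (0.19). Summed over all laminin genes, Ctrl lenses had 309 to 354 CPM and Qk-iCKO lenses 375 to 443 CPM, so the groups did not overlap, while for the integrins the sums of 581 to 681 and 582 to 604 CPM did.

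The rise among the integrins was led by the leukocyte subunits. Itgam, the alpha M chain of complement receptor 3 (CD11b, chr7:128062640-128118491, GRCm38, plus strand), had 0.166, 0.0713 and 0.0686 CPM in Ctrl and 8.10, 3.48 and 6.56 CPM in Qk-iCKO lenses (log2 fold change 5.81 ± 0.53, edgeR, adjusted p = 0.000974). Its partner Itgb2 (CD18, chr10:77530252-77565708, GRCm38, plus strand) had 0, 0.214 and 0.206 CPM in Ctrl and 17.2, 3.77 and 10.2 CPM in Qk-iCKO lenses (log2 fold change 6.07 ± 0.80, edgeR, adjusted p = 0.00433). In both genes Qk-iCKO library 2 was the lowest of the deletion libraries. Itgax (CD11c, chr7:128129547-128150657, GRCm38, plus strand), which lies just downstream of Itgam, had no count in any Ctrl library and 143, 9 and 113 counts in the Qk-iCKO libraries. It missed the count filter because of the second library, and was at least 98.3-fold higher against a floor of 3 counts over the control group. Itgal, the alpha chain of LFA-1, was counted in both groups, with 25 counts in the Ctrl and 19 in the Qk-iCKO libraries, a ratio of 0.846 (95% counting interval 0.440 to 1.60). Itgad, Itgae, Itgb7 and Itgb2l had at most 8 counts in either group.

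Markers of macrophages and other leukocytes were higher in the same group. All 13 tested of the 15 markers passed as higher in the Qk-iCKO lenses, against 8.38% of all lens genes. Ptprc, Cd68, Adgre1, Tyrobp, Fcer1g, C1qa and C1qb were among those that reached the count filter only in the Qk-iCKO libraries. Such genes had to be higher there. The 15 markers summed to 3.07 to 6.25 CPM in Ctrl and to 169, 202 and 238 CPM in Qk-iCKO libraries 1, 2 and 3. Spi1, which encodes the myeloid factor PU.1, rose by 5.54 and Csf1r, the receptor of macrophage growth factor, by 4.78 on the log2 scale (edgeR, adjusted p = 0.00189 and 0.000548). The neutrophil genes S100a8 and Ly6g and the T cell gene Cd3e had no count in any lens library, and the 7 neutrophil markers summed to at most 0.606 CPM. The 8 lymphocyte markers summed to 0.663 to 1.37 CPM in Ctrl and 0.982 to 2.81 CPM in Qk-iCKO libraries, and Cd3g of T cells was counted in all 3 Qk-iCKO libraries (0.0614, 0.387 and 0.303 CPM). The part of such cells in the integrin changes was not tested, and in whole lenses more cells of a type and more RNA per cell cannot be told apart. The plot of integrins that are low in control lenses sets these subunits beside the markers.

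**Figure D2:**
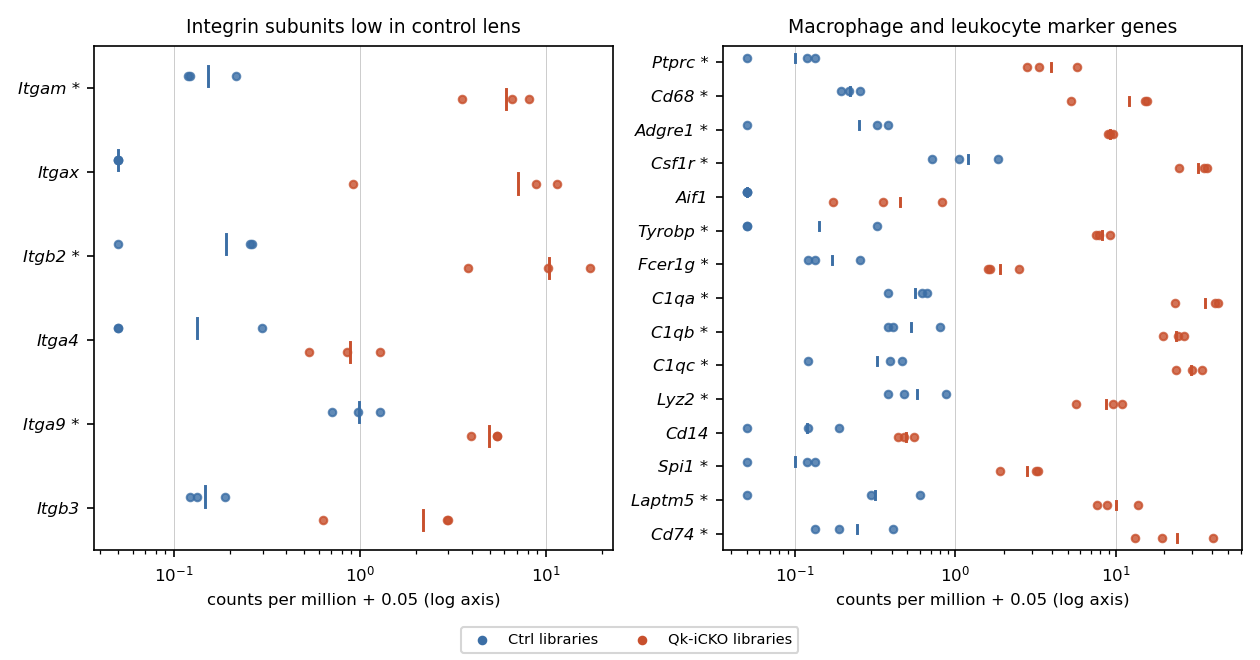
Left, integrin subunits with low levels in control lenses. Right, the 15 macrophage and leukocyte markers. The axis is CPM plus 0.05 on a log scale, each point is 1 of 3 Ctrl or 3 Qk-iCKO libraries, bars are means and a star marks an adjusted p under 0.05. Deletion libraries lie to the right of every control library for all genes shown.

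The start regions of Itgam and Itgax are shown because these neighbours had counts mainly in the Qk-iCKO libraries. They are RefSeq windows of 300 bases on GRCm38.p6, from 250 bases before to 50 after the start, read 5′ to 3′ on the gene's strand, with capitals for the letters GAGGAA (the core bound by PU.1) or TGACTCA (the AP-1 element) on either strand.
Itgam (chr7:128062390-128062689, plus strand): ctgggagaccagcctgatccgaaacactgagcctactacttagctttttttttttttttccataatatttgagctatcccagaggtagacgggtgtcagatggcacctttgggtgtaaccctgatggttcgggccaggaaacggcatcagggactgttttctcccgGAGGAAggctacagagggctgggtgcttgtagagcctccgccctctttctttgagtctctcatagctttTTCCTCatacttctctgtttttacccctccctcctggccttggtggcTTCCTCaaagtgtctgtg
Itgax (chr7:128129300-128129599, plus strand): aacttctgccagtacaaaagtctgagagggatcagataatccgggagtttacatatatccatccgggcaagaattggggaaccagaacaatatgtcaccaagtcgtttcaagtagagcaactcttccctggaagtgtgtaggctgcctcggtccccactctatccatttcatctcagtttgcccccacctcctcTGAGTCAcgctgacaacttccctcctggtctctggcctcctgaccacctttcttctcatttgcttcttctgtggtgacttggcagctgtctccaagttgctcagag
GAGGAA was found 3 times in the Itgam window and is held by 28.3% of the 32851 mouse windows. TGACTCA was found once in the Itgax window and is held by 5.20% of all windows. Of the 38 mouse members 24 had a window, 27 windows in all, and 21 of these lay within 1000 bases of the annotated start of the gene. Of the 21, 11 held GAGGAA and 1 held TGACTCA. The sterol regulatory element TCACNCCAC was in 1 of them (Itgb2l), against 1.24% of all windows, and the letters ACTAAC and ACTAAT, the DNA form of the sequence that Qki binds in RNA, were in none, against 6.09 and 6% of all windows. A match of letters describes these windows only.

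Outside the leukocyte group, Itga9, Itga7 and Itga5 rose in the lens. Itga9, a receptor subunit for tenascin and osteopontin, had 0.663, 0.927 and 1.24 CPM in Ctrl and 5.40, 5.42 and 3.94 CPM in Qk-iCKO lenses (log2 fold change 2.37 ± 0.31, edgeR, adjusted p = 0.00417). Itga7, a laminin receptor subunit of muscle (chr10:128933818-128958282, GRCm38, plus strand), had 0.746, 0.570 and 0.206 against 5.95, 4.26 and 1.51 CPM (log2 fold change 2.96 ± 0.62, edgeR, adjusted p = 0.0219). Itga5, the fibronectin receptor subunit (chr15:103344286-103366763, GRCm38, minus strand), had 2.40, 1.28 and 1.10 against 9.14, 3.58 and 4.54 CPM (log2 fold change 1.88 ± 0.45, edgeR, adjusted p = 0.0370). None of the 3 overlapped between the groups. Itgb3, the beta subunit of the vitronectin receptor, had only 1, 1 and 2 counts in Ctrl and 47, 6 and 29 in Qk-iCKO libraries, a ratio of 22.8 (95% counting interval 8.58 to 85.7). Itga4, a receptor subunit for VCAM-1 and fibronectin, had 3, 0 and 0 counts against 20, 5 and 8, a ratio of 12.2 (3.84 to 62.4), and Itgb4, the hemidesmosome subunit that binds laminin, had 2, 7 and 2 against 50, 14 and 6, a ratio of 7.08 (3.73 to 14.8). These intervals cover counting error only, and the 3 genes were below the count filter. Summed markers of fibroblasts, pericytes and smooth muscle lay at 88.3, 110 and 59.0 CPM in Ctrl and 185, 202 and 56.7 CPM in Qk-iCKO lenses. Those of endothelium lay at 11.2, 12.5 and 16.2 against 31.3, 20.4 and 29.1 CPM. For neural stem cells and astrocytes the sums were 95.5, 107 and 58.0 against 342, 231 and 84.8 CPM. Markers of retina and pigment epithelium were uneven, at 78.0, 531 and 4.46 CPM in Ctrl and 187, 43.7 and 19.2 CPM in Qk-iCKO lenses. The 16 lens markers summed to 359092 to 389725 CPM in Ctrl and 177343 to 327623 CPM in Qk-iCKO lenses. The part of these cell types in the changes was not tested.

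The abundant integrins of the lens did not pass the test in edgeR. Itgb5 had 219, 204 and 196 CPM in Ctrl and 132, 222 and 184 CPM in Qk-iCKO lenses, and Itgb1 had 165, 153 and 176 against 144, 149 and 146 CPM. Their log2 fold changes were −0.20 ± 0.21 and −0.17 ± 0.14 (edgeR, adjusted p = 0.571 and 0.450), and with total counts alone both turned to 0.02 and 0.12. Itga6 had 149, 126 and 177 CPM in Ctrl and 112, 86.5 and 98.8 CPM in Qk-iCKO lenses, without overlap (log2 fold change −0.60 ± 0.18, edgeR, adjusted p = 0.0734). DESeq2 called Itga6 lower (adjusted p = 0.0187). Itga2, a collagen receptor subunit, was also below its controls in every deletion library, at 1.96, 1.84 and 1.92 against 3.40, 2.57 and 4.32 CPM (log2 fold change −0.84, edgeR, adjusted p = 0.0968). Itgav, Itga3, Itgb8, Itga8 and Itga1 had overlapping groups and log2 fold changes from −0.63 to 0.57.

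Itga9 and Lama3 kept an adjusted p under 0.05 with each of the 6 libraries left out in turn. Lama5 lost it without any 1 of the Ctrl libraries (highest adjusted p 0.0731), Itga5 without any Ctrl library or Qk-iCKO library 1 (highest 0.131), and Itga7 and Lama2 kept it only without Qk-iCKO library 3 (highest 0.0787 and 0.161). Without Qk-iCKO library 1, 7 members passed, 5 higher and 2 lower.

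Among the other ligands of integrins in the lens, 8 of 20 tested genes passed and all 8 were higher (12.3% of all lens genes passed), and the median of the 20 was 1.47 on the log2 scale. Of the 8, Spp1, Icam1, Tgfbi and Tnc reached the count filter only in the Qk-iCKO libraries, so that they had to be higher there. Fn1, encoding fibronectin, had 1.57, 0.570 and 0.961 CPM in Ctrl and 68.4, 40.5 and 104 CPM in Qk-iCKO lenses (log2 fold change 6.11 ± 0.49, edgeR, adjusted p = 0.000612). Postn (periostin) rose by 5.97 and Tgfbi by 5.75 on the log2 scale (edgeR, adjusted p = 2.46e-05 and 7.90e-05). Spp1 (osteopontin) had no count in any Ctrl library and 17.8, 1.06 and 33.6 CPM in Qk-iCKO lenses. These proteins are ligands of the alpha 5, alpha v, alpha 9 or beta 3 integrins. With the replicate number as a block 13 of the 20 passed, all higher.

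Of 25 tested partners of laminin in the basement membrane, 6 passed in the lens, 3 higher and 3 lower, with a median of −0.01, against 12.3% of all genes. Bcam, a receptor for Lama5-containing laminins, had 3.23, 4.92 and 2.95 CPM in Ctrl and 28.5, 30.0 and 20.2 CPM in Qk-iCKO lenses (log2 fold change 2.82 ± 0.25, edgeR, adjusted p = 0.000951). Frem1 (1.91) and Utrn (1.03) were also higher, and Frem2, Dmd and Col4a1 lower, by 1.63, 1.00 and 0.95 on the log2 scale. In the integrin adhesion complex 8 of 36 passed, 6 higher and 2 lower, with a median of 0.45, also against 12.3%. The largest values were those of Fermt3 (5.57 ± 0.53), the kindlin of blood cells, and Ptk2b (4.47 ± 0.97), while Cd9 rose by 2.61 ± 0.22 and Lims2 fell by 1.89 (edgeR, adjusted p = 0.00122, 0.0255, 0.000749 and 0.0359). Fermt3 and Ptk2b reached the count filter only in the Qk-iCKO libraries, so that they had to be higher there. With the block 10 and 14 passed in these lists.

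In NLPCs 6 integrin subunits passed the test, with Itgb8 and Itga7 lower and Itga3, Itgb4, Itga1 and Itga11 higher. Of 34 members tested 6 passed, 4 higher and 2 lower, which is 17.6% against 10.7% of 20371 genes (4.74% higher and 5.96% lower), and the median on the log2 scale was 0.38 for the members and 0.04 for all genes. All 6 were integrin subunits (6 of 23). Of the 11 laminin chains none passed in edgeR with the count filter, while 2 had an unadjusted p under 0.05. DESeq2 called Lama1 and Lama5 (adjusted p = 0.00852 and 0.0226), and edgeR also called Lama5 when every gene with at least 1 count was tested. Groups did not overlap for 14 members, 11 of them higher, against 35.2% of all genes. The neural stem cell and astrocyte markers summed to 7662 to 8403 CPM in WT and 5044 to 6103 CPM in Qk-/- libraries, and their part in the changes was not tested. Without library Qk-/- 2, which stood apart, 11 members passed, 6 higher and 5 lower. The plot of NLPC values by library shows separate groups for Itgb8 and overlapping ones for Itgb1, Itga6 and Itgav, the other subunits of the highest WT levels.

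**Figure D3:**
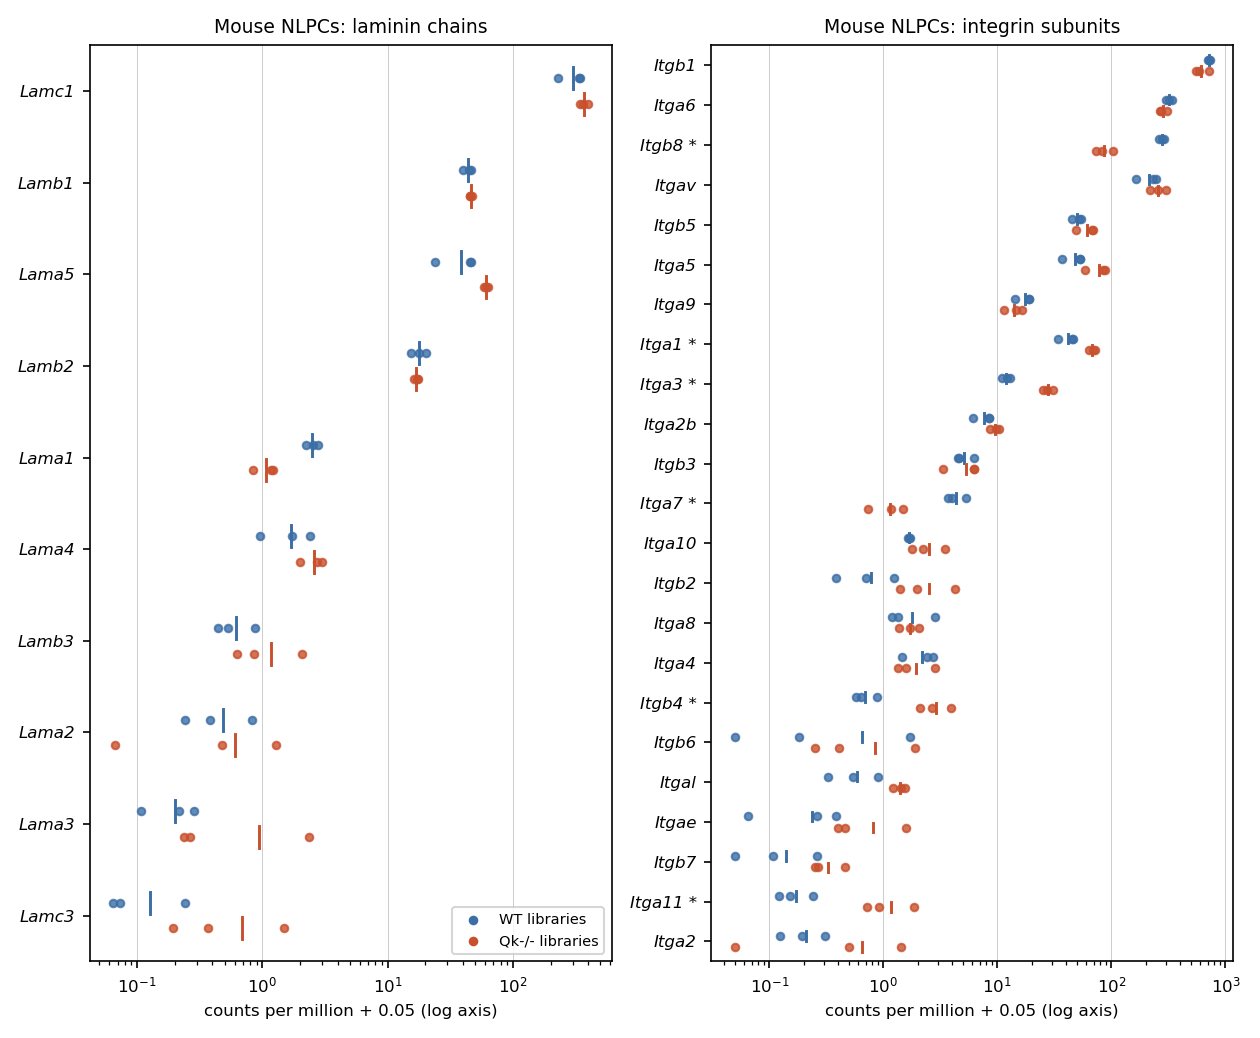
CPM plus 0.05 (log axis) of 10 laminin chains and 23 integrin subunits tested in NLPCs, ordered by their control level per kilobase. Each point is 1 of 3 WT or 3 Qk-/- libraries, bars are means and a star marks an adjusted p under 0.05. Itgb8 lies at 263 to 287 CPM in WT and at 73.5 to 103 CPM in Qk-/- libraries.

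Itgb8, the beta subunit that with alpha v activates latent TGF-beta (chr12:119158022-119238802, GRCm38, minus strand), had 287, 275 and 263 CPM in WT and 83.2, 103 and 73.5 CPM in Qk-/- NLPCs. It fell by 1.67 ± 0.13 on the log2 scale (edgeR, adjusted p = 0.000409), with each library left out in turn too. Its partner Itgav was at 247, 163 and 231 against 258, 300 and 216 CPM, overlapping (log2 fold change 0.27 ± 0.18). Itga7 was low and fell, from 3.92, 3.66 and 5.31 to 0.682, 1.13 and 1.45 CPM (log2 fold change −1.98 ± 0.36, edgeR, adjusted p = 0.0121). That call was lost without WT library 1 or 3 (highest adjusted p 0.103).

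The 4 subunits called higher in Qk-/- NLPCs bind laminin or collagen. Of the other laminin-binding subunits, Itga7 was called lower and Itga6 did not pass (log2 fold change −0.19). Itga3, a laminin receptor subunit of epithelia (chr11:95044474-95076801, GRCm38, minus strand), had 12.2, 10.9 and 12.8 CPM in WT and 25.0, 27.3 and 30.4 CPM in Qk-/- cells (log2 fold change 1.20 ± 0.13, edgeR, adjusted p = 0.00118), with each library left out as well. Itgb4 had 0.585, 0.827 and 0.524 against 2.03, 3.86 and 2.65 CPM (log2 fold change 2.14 ± 0.42, edgeR, adjusted p = 0.0169). Itga1, a collagen receptor subunit, had 44.9, 33.7 and 45.6 against 63.0, 72.2 and 69.4 CPM (log2 fold change 0.72 ± 0.13, edgeR, adjusted p = 0.0141). Both lost the call without WT library 1 or 3 or Qk-/- library 3 (highest adjusted p 0.109 for Itgb4 and 0.0622 for Itga1). Itga11, another collagen receptor subunit, stayed under 2 CPM, at 0.190, 0.0709 and 0.102 against 0.861, 1.81 and 0.675 (log2 fold change 3.16 ± 0.77, edgeR, adjusted p = 0.0375). It was not called with the replicate number as a block (edgeR, adjusted p = 0.0692) and kept its call only without Qk-/- library 2 (highest adjusted p 0.187).

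Itga5 had 53.1, 36.5 and 53.3 CPM in WT and 85.1, 59.1 and 87.0 CPM in Qk-/- NLPCs, without overlap (log2 fold change 0.69 ± 0.19, edgeR, adjusted p = 0.0592). It passed with the block (adjusted p = 0.00732). Lama1, the alpha chain of the early embryonic laminin, was low and below WT in every library, at 1.11, 0.786 and 1.16 against 2.47, 2.72 and 2.18 CPM (log2 fold change −1.26 ± 0.35, edgeR, adjusted p = 0.0614). Lama5 was above WT in every library, at 61.2, 58.6 and 63.3 against 46.7, 23.7 and 45.5 CPM (log2 fold change 0.66 ± 0.23, edgeR, adjusted p = 0.119). Lamc1, Lamb1 and Lamb2, the chains with most counts besides it, had log2 fold changes of 0.27, 0.08 and −0.08 and overlapping groups. Itgb2 had 1.20, 0.331 and 0.655 against 1.35, 4.20 and 1.92 CPM (adjusted p = 0.119, edgeR), and DESeq2 called it higher (adjusted p = 0.0332). Itgal and Itgae were also above WT in every library but did not pass (edgeR, adjusted p = 0.185 and 0.295), and Itgb7 overlapped. Itgam had 16 counts in WT, 15 of them in library 2, and 8 in Qk-/- cells. The 15 macrophage and leukocyte markers summed to 9.43 to 11.6 CPM in WT and 12.6 to 20.1 CPM in Qk-/- libraries, with a median of 0.95 on the log2 scale over the 8 tested, none of which passed (edgeR), and C1qa at 0 in every library. Their part in these values was not tested.

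Of the partners in NLPCs, 13 of 26 basement membrane genes passed, 6 higher and 7 lower, where 10.7% of all genes passed, among them Frem1 (1.68), Col4a5 (−1.46) and Nid2 (−1.36). Of 36 adhesion complex genes 7 passed, 3 higher and 4 lower. Fermt2, the kindlin of adherent cells, fell by 0.97, Rsu1 by 0.93 and Lims2 by 1.45 on the log2 scale, and Ptk2b rose by 2.61 (edgeR, adjusted p = 0.000455, 0.00100, 0.0184 and 0.0267). Among 21 other ligands 6 passed, 3 in each direction. Tnc (tenascin C) had 322, 333 and 339 CPM in WT and 51.0, 39.2 and 55.7 CPM in Qk-/- NLPCs (log2 fold change −2.77 ± 0.14, edgeR, adjusted p = 0.000142). Vcam1 fell by 2.69, and Npnt, the ligand of alpha 8 beta 1, rose by 1.85 (edgeR, adjusted p = 0.000108 and 0.00176).

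In HLE-B3 cells most tested members passed the test, and most changes were under 1 on the log2 scale. Of 30 tested 20 passed, 8 higher and 12 lower, which is 66.7% against 33.3% of 19049 genes (17% higher and 16.3% lower), and the median on the log2 scale was −0.15 for the members and −0.02 for all genes. An unadjusted p under 0.05 was reached by 23, against 41.3% of all genes. The groups did not overlap for 24, 11 above and 13 below, against 44.6% of all genes (22% above and 22.6% below). The laminins were mostly lower, with 9 of 11 called, 2 higher and 7 lower, and the integrins had 11 of 19, 6 higher and 5 lower. All laminin genes together had 1404 to 1436 CPM in WT and 1106 to 1156 CPM in QKI KO libraries, and all integrin genes 4086 to 4271 and 3980 to 4051 CPM. Of the marker lists, the 16 lens genes summed to 629 to 735 CPM in WT and 1005 to 1157 CPM in QKI KO libraries, and the fibroblast, pericyte and smooth muscle genes to 5433 to 5474 and 4588 to 4823 CPM. Their part in the changes was not tested.

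**Figure D4:**
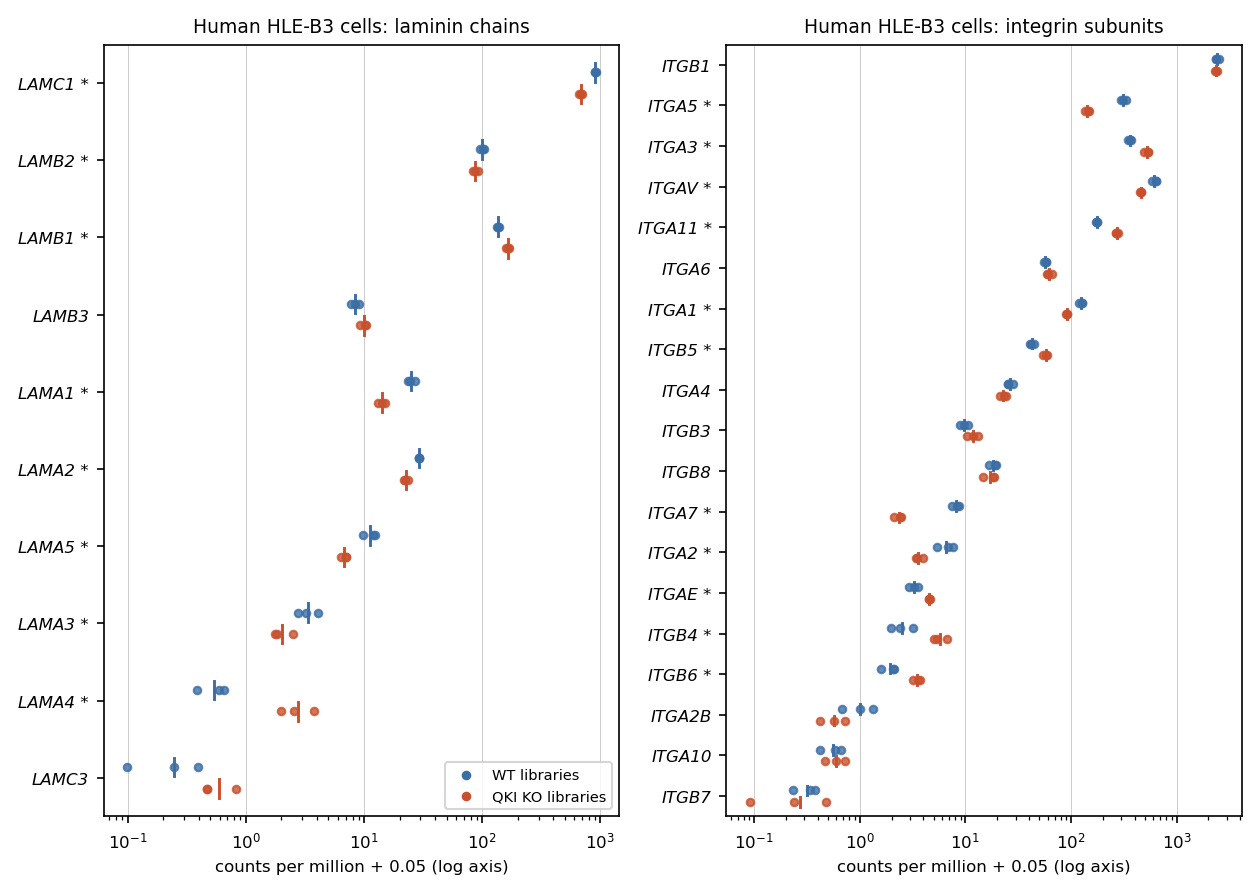
CPM plus 0.05 (log axis) of 10 laminin chains and 19 integrin subunits tested in HLE-B3 cells, ordered by their control level per kilobase. Each point is 1 of 3 WT or 3 QKI KO libraries, bars are means and a star marks an adjusted p under 0.05. ITGA5 lies at 296 to 329 CPM in WT and at 136 to 148 CPM in QKI KO libraries, while ITGB1 overlaps.

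Of the gamma and alpha laminin chains of HLE-B3 cells LAMC1 and 4 alpha chains fell, LAMA4 rose, and LAMC3 did not pass (log2 fold change 1.47, edgeR, adjusted p = 0.118). LAMC1 had 918, 901 and 899 CPM in WT and 682, 698 and 660 CPM in QKI KO cells, and fell by 0.41 ± 0.05 on the log2 scale (edgeR, adjusted p = 3.23e-06). The alpha chains LAMA1, LAMA5, LAMA3 and LAMA2 fell by 0.83, 0.73, 0.73 and 0.37 on the log2 scale (edgeR, adjusted p = 3.06e-06, 0.000279, 0.0227 and 0.00113). Their levels in WT were 23.5 to 27.2 CPM for LAMA1, 9.68 to 12.3 CPM for LAMA5, 2.70 to 4.03 CPM for LAMA3 and 29.0 to 29.2 CPM for LAMA2. The 50 tested genes nearest to LAMA3 had a median of −0.51, against 0.43 around LAMA5. LAMA4, a chain of vessel and muscle basement membranes (chr6:112429134-112576141, GRCh37, minus strand), was low and rose from 0.539, 0.603 and 0.334 to 2.48, 3.75 and 1.94 CPM (log2 fold change 2.46 ± 0.34, edgeR, adjusted p = 2.68e-05). The beta chains moved little: LAMB1 rose by 0.28 ± 0.06, LAMB2 fell by 0.20 ± 0.06 (edgeR, adjusted p = 0.000706 and 0.0185), and LAMB3 did not pass (0.24 ± 0.12). LAMB2 lost its call without WT library 1 or 2 or QKI KO library 2 or 3, and LAMA3 without WT library 3 or QKI KO library 2 or 3 (highest adjusted p 0.111 and 0.118).

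Among the integrins of HLE-B3 cells the alpha subunits that pair with beta 1 moved apart while ITGB1 itself stayed close to its control. ITGB1 had 2491, 2332 and 2342 CPM in WT and 2346, 2392 and 2304 CPM in QKI KO cells (log2 fold change −0.03 ± 0.04, edgeR, adjusted p = 0.722). ITGA5 (chr12:54789045-54813050, GRCh37, minus strand) had 311, 329 and 296 CPM in WT and 148, 136 and 145 CPM in QKI KO cells, a fall of 1.13 ± 0.06 on the log2 scale (edgeR, adjusted p = 3.48e-10). ITGAV had 632, 585 and 631 against 460, 460 and 454 CPM (log2 fold change −0.43 ± 0.05, edgeR, adjusted p = 5.12e-06). ITGA7 (chr12:56078352-56110188, GRCh37, minus strand) had 7.38, 8.60 and 8.21 against 2.07, 2.40 and 2.36 CPM (log2 fold change −1.82 ± 0.16, edgeR, adjusted p = 1.78e-07). The collagen receptor subunits ITGA1 and ITGA2 fell by 0.44 and 0.88, whereas ITGA11, of the same group, rose by 0.63 ± 0.05, from 171, 178 and 175 to 268, 276 and 265 CPM (edgeR, adjusted p = 1.52e-05, 0.000618 and 1.13e-07).

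ITGA3, which binds laminin, had 364, 367 and 346 CPM in WT and 541, 491 and 531 CPM in QKI KO cells (log2 fold change 0.54 ± 0.05, edgeR, adjusted p = 9.14e-07). ITGB4 rose with it, from 2.38, 3.17 and 1.92 to 5.32, 4.995 and 6.69 CPM (log2 fold change 1.19 ± 0.21, edgeR, adjusted p = 0.000246), but ITGA6, its obligate partner, did not pass, at 57.7, 55.9 and 58.1 against 65.5, 59.0 and 60.4 CPM, without overlap (0.11 ± 0.06, edgeR, adjusted p = 0.234). The beta subunits that pair with alpha v, ITGB5 (0.44 ± 0.07) and ITGB6 (0.88 ± 0.21), were higher, and ITGB8 and ITGB3 did not pass (−0.10 and 0.29). ITGAE was higher by 0.49 ± 0.17 at under 5 CPM (edgeR, adjusted p = 0.0389), and it kept that call only without WT library 1 (highest adjusted p 0.106). ITGAM, ITGAX, ITGB2, ITGAL and ITGAD had too few counts for the test. ITGB2 had 40 counts in the WT and 8 in the QKI KO libraries, a ratio of 0.210 (95% counting interval 0.0849 to 0.455). The 8 counts were all in QKI KO library 2, and the interval covers counting error only.

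Of 24 basement membrane genes 16 passed, 5 higher and 11 lower, with a median of −0.33, where 33.3% of all genes passed. NID2, a nidogen that ties laminin to collagen IV, had 28.4, 29.6 and 31.3 CPM in WT and 5.64, 4.24 and 2.88 CPM in QKI KO cells (log2 fold change −2.80 ± 0.17, edgeR, adjusted p = 2.00e-09). FRAS1 fell by 1.46 and TINAGL1 by 1.51, while NTN4, a netrin that binds laminin gamma chains, rose by 1.23 ± 0.07. Of 40 adhesion complex genes 24 passed, 15 higher and 9 lower. The changes were at most 1.02 on the log2 scale (FERMT3, edgeR, adjusted p = 0.000138), apart from APBB1IP, which had at most 0.0122 CPM in WT. Among 23 other ligands 13 passed, 6 higher and 7 lower. TNC fell by 1.42 ± 0.06, LTBP1 by 1.48, SPP1 by 2.63 and POSTN by 0.94 ± 0.06 on the log2 scale (edgeR, adjusted p = 7.75e-11, 3.82e-08, 0.00228 and 1.14e-08).

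Set side by side, 24 of the members passed in at least 1 system, 14 of them in 1, 9 in 2 and 1 in all 3. Among the 19 members tested in all 3 systems, 16 passed in at least 1, 8 in at least 2 and 1 in 3. Of the 9398 symbols tested in all 3 systems, 57.6%, 13.3% and 1.43% did so. The gene called in all 3 was ITGA7, higher in the lens and lower in NLPCs and HLE-B3 cells. In the lens Itga7 reached the count filter only in the Qk-iCKO libraries, so that it had to differ there. ITGA3, ITGB4 and ITGA11 were called higher in both cell systems and not in the lens, where Itga3 had a log2 fold change of 0.57 ± 0.33 and the other two were not tested. LAMA2 and LAMA3 were called lower in lens and HLE-B3 cells. ITGA5 and LAMA5 were called higher in the lens and lower in HLE-B3 cells, and ITGA1 was higher in NLPCs and lower in HLE-B3 cells. No test was made between the human and the mouse systems. The plot of effects in the 3 systems gives the tested members side by side.

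**Figure D5:**
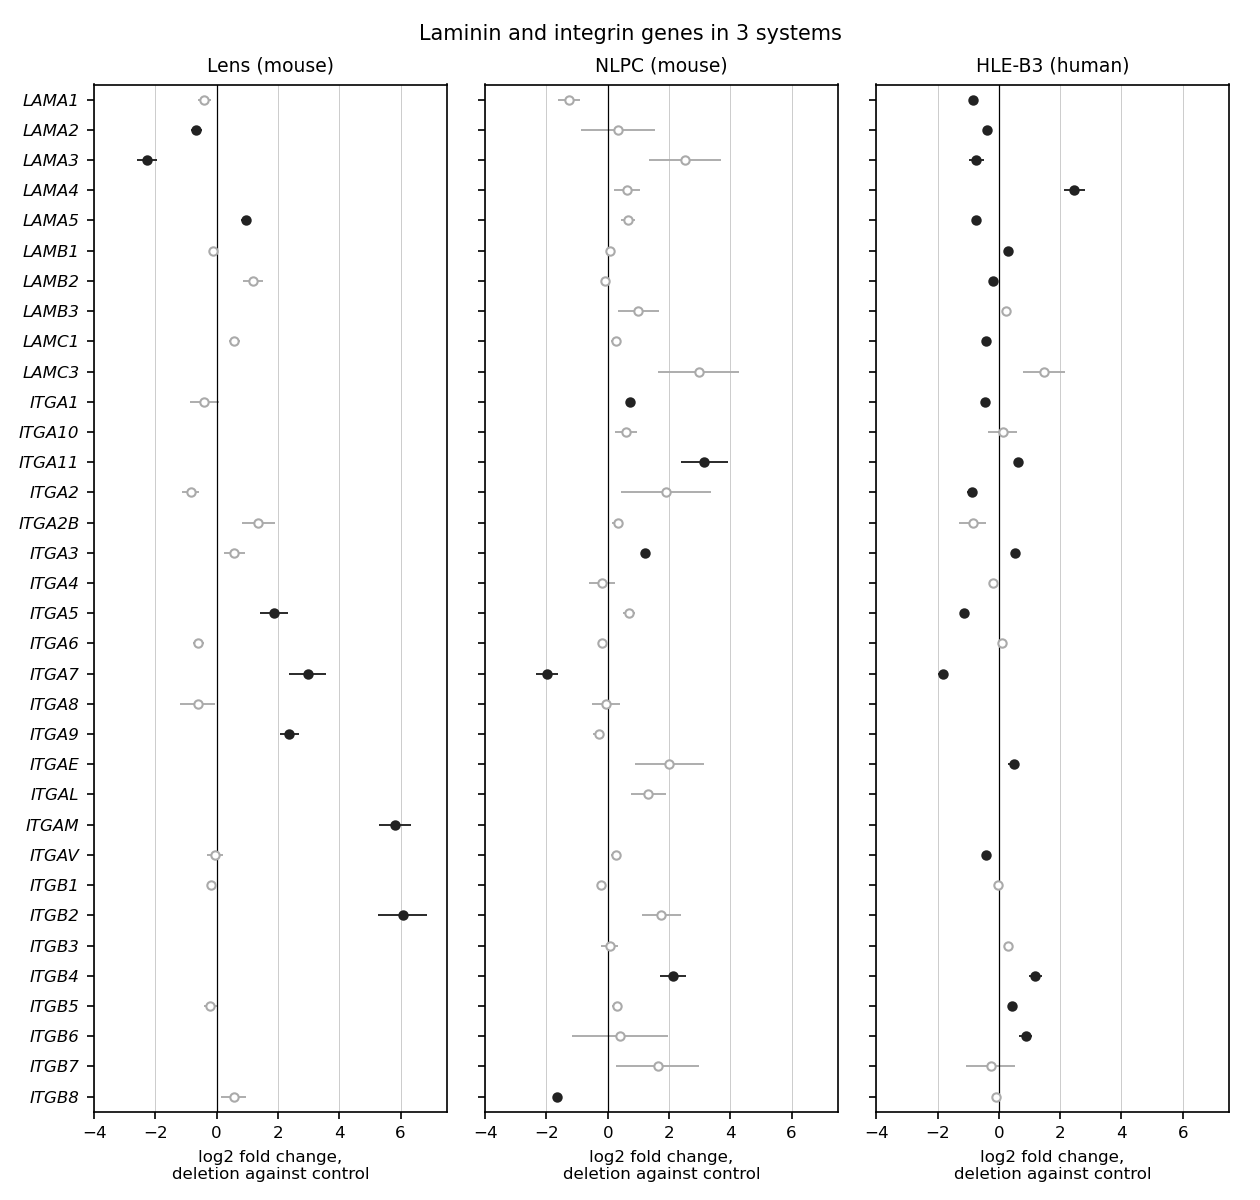
Log2 fold change of deletion against control (points) with its standard error (bars) for tested laminin and integrin genes in lens, NLPCs and HLE-B3 cells, with human symbols for both species. Filled points have an adjusted p under 0.05, and an empty row means that the gene was not tested there. The effects reach 6.07 in the lens and stay between −1.82 and 2.46 in HLE-B3 cells.

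The difference between the 2 mouse systems was tested in a joint fit of lens and NLPC libraries. Of 32 members in that fit 8 differed in their deletion effect, against 8.53% of 16675 genes, 7 of them with a lower effect in NLPCs. Itga7 differed by −4.87 ± 0.74 on the log2 scale (edgeR, adjusted p = 0.00207), being higher in 3 of 3 Qk-iCKO lenses and lower in 3 of 3 Qk-/- NLPC libraries. Itga9 differed by −2.58 ± 0.34 (adjusted p = 0.000744) and Itgb8 by −2.15 ± 0.44 (adjusted p = 0.0106, edgeR throughout). The effect of Lama3 was higher in NLPCs by 4.86 ± 1.22 (edgeR, adjusted p = 0.0290), where it was at most 0.234 CPM in 5 of 6 libraries and 2.29 CPM in Qk-/- library 2, and without that library the difference was 2.75 (adjusted p = 0.025). The leukocyte subunits Itgam and Itgb2 and the low Itgb3 differed by −6.74, −4.31 and −4.29 (edgeR, adjusted p = 0.0310, 0.0362 and 0.00849). Itga7, Itgam and Itgb2 reached the lens count filter only in the Qk-iCKO libraries, so that their lens effects had to be upward. Under the replicate block the adjusted p of Itgb2 was 0.0539, and without WT NLPC library 2 the difference of Itgam was −3.50 (adjusted p = 0.447, edgeR). For Itga3, Itgb4, Itga5, Lama5 and Lamb2 the difference did not pass. With the block Itga3 (0.77), Itga5 (−1.04) and Lamb2 (−1.11) passed (edgeR, adjusted p = 0.0331, 0.0173 and 0.0102), and so did Itgax (adjusted p = 0.0217), which had no count in the Ctrl lenses.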

How the data were processed

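RNA was measured in 18 libraries, 3 per group, grouped by the deposited labels. The authors isolated total RNA (RNeasy Mini Kit, stranded Illumina libraries) and, per their methods, aligned reads with STAR 2.6.1b to mm10 or hg19 and counted them per gene with HTSeq 0.11.0. The processing notes also name HISAT2 2.0.4 and featureCounts, without saying for which table. The deposited values are raw counts without normalization, in 1 table per system.

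The 3 systems were modelled separately. After filterByExpr (minimum count 10, total 15) and TMM scaling, edgeR 4.0.16 (R 4.3.3) tested deletion against control by quasi-likelihood, and p-values were adjusted over all tested genes by Benjamini-Hochberg. CPM values are scaled by TMM, and levels per kilobase use merged GENCODE exons. Lens and NLPC effects were compared by an interaction term. An exact permutation test of 3 libraries against 3 cannot give a p under 0.1. Same-numbered libraries of the 2 groups deviated together in the lens (correlations 0.133 to 0.523) and NLPCs (0.123 to 0.320), so values with the replicate number as a block are given where they change a call. The numbers come from the sample titles. Alternatives were RLE factors, total counts alone, every gene with at least 1 count, DESeq2 1.42.0, the block, each library left out, factors without crystallins (lens) and the median of the 50 nearest genes subtracted (HLE-B3). The steps were tested on simulated data. Named are all members past an adjusted p of 0.05 in any system with their values in the others, the leading member of each subfamily, and up to 4 genes of each partner list. Members, lists and markers were chosen with earlier results of these data known. The values of 1 member are not reported here, but it is part of all counts. RefSeq gave the promoter windows (GRCm38.p6).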

Additional observations from a re-analysis of the deposited data

Results flagged for a closer look

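For 8 members the deletion effect differed between lens and NLPCs in the joint fit, given here as the NLPC minus the lens log2 fold change (edgeR, adjusted p under 0.05), and 7 of them are given. In the lens Itga7, Itgam and Itgb2 reached the count filter only in the Qk-iCKO libraries. The difference was −4.87 for Itga7, −2.58 for Itga9, −6.74 for Itgam, −4.31 for Itgb2, −4.29 for Itgb3, −2.15 for Itgb8 and 4.86 for Lama3. Of these, Itga7, Itga9, Itgb3 and Itgb8 kept an adjusted p under 0.05 with each of the 12 libraries left out in turn. Lama3 kept it in 6 of 12, Itgam in 6 and Itgb2 in 4. Without WT NLPC library 2, which held 15 of the 16 WT counts, the Itgam difference was −3.50 (adjusted p = 0.447). With the replicate block Itgb2 had an adjusted p of 0.0539, and with total counts alone Lama3 one of 0.0510. Without Qk-/- NLPC library 2 the Lama3 difference was 2.75. Itgb3 had 4 counts in the Ctrl lenses, and Itgam 16 and 8 counts in WT and Qk-/- NLPCs, so those values rest on few reads.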

How the results depend on the processing

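The cause of the changes below was not tested. With every gene of at least 1 count tested, 14 members passed in the lens in place of 9, and 12 basement membrane partners, 16 adhesion complex genes and 14 ligands in place of 6, 8 and 8. With the replicate block 10, 14 and 13 of these 3 lists passed, and 11 members (9 higher, 2 lower). With total counts alone, which moved the median of all lens genes to 0.292, 3 basement membrane partners and 5 adhesion complex genes passed. DESeq2 called 17 adhesion complex genes in the lens, and in NLPCs 10 members, 11 adhesion complex genes and 10 ligands, in place of 6, 7 and 6.

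With 1 library left out, members called numbered 5 to 12 in the lens (5 without any Ctrl library), 2 to 11 in NLPCs (2 without WT library 1 or 3, 3 without Qk-/- library 3, 11 without Qk-/- library 2) and 17 to 20 in HLE-B3 cells. Basement membrane partners numbered 2 to 10, 8 to 14 and 16 to 17, adhesion complex genes 2 to 13, 4 to 15 and 18 to 22, ligands 5 to 11, 3 to 10 and 12 to 14, in that order of systems. Members that differed between lens and NLPC numbered 5 to 9. The other scaling, test and filter settings kept every count of HLE-B3 within 1.5 times.

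Directions turned only among members that did not pass. With total counts alone, the lens values were 0.25 for Itgav, 0.12 for Itgb1, 0.19 for Lamb1 and 0.021 for Itgb5. The block gave −0.51 for Lama2 and 0.032 for Itga8 in NLPCs, against 0.34 and −0.07 without it. With libraries left out, values ranged from −0.25 to 0.13 for Itgav, −5.95e-05 to 0.78 for Itgb8 and −0.75 to 0.049 for Itga1 in the lens, from −0.0033 to 0.11 for Lamb1, −0.95 to 1.06 for Lama2, −0.087 to 0.31 for Itgb3, −1.06 to 3.53 for Itgb6 and −0.19 to 0.017 for Lamb2 in NLPCs, and from −0.16 to 0.0094 for ITGB8 and −0.036 to 0.024 for ITGB1 in HLE-B3 cells. Less the median of its 50 nearest genes, ITGB3 was at −0.10. In HLE-B3 cells same-numbered libraries correlated at −0.0495 to 0.0613, so the numbers pair nothing. The replicate block there called 19 members in place of 20, without ITGAE (adjusted p = 0.0613).

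At lens depth a member under about 0.81 CPM in a library was below the count filter, which left 15 members untested there. Strand and paralog handling of the counting could not be checked from the tables.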
